A study of Mus musculus with 12 samples.

Results

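The matrix metalloproteinase system was examined in mouse skin through 10 genes, namely 8 matrix metalloproteinases (MMPs), Mmp2, Mmp3, Mmp8, Mmp9, Mmp10, Mmp12, Mmp13 and Mmp14, and 2 of their tissue inhibitors, Timp1 and Timp3. They were chosen by name, and all 10 were found among the 55453 genes of the count table and passed the filter on low counts. Mmp8 and Mmp10 passed it only through mice treated with bleomycin. MMPs are zinc-dependent enzymes that are made as inactive proenzymes, activated by cleavage of their propeptide, and together can degrade most proteins of the extracellular matrix. Their activity is held in check by the TIMP proteins, which bind the active site. In skin, MMPs are made by fibroblasts, keratinocytes and infiltrating leukocytes during wound repair and fibrosis, and many of their genes are induced by cytokines through the transcription factor AP-1. Transcript counts do not measure enzyme activation or inhibition.

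The samples were whole skin from 12 female mice of the C57/BL6 strain, aged 8 to 12 weeks, harvested on day 21, with 3 mice in each of 4 groups. WT PBS mice were wild type and received PBS; WT BLM mice were wild type and received bleomycin, a cytotoxic drug that induces skin fibrosis when injected under the skin. KO PBS and KO BLM mice carried the Thy1-knockout genotype, were backcrossed for at least 10 generations to the C57BL/6 background and received PBS or bleomycin. Bleomycin was given at 10 mg/kg/d into 2 spots of the back for up to 14 days in the study's methods, while the labels give 21 days of treatment. Thy-1 is a cell surface protein of fibroblasts, neurons and mouse T cells, and the knockout is constitutive rather than restricted to 1 cell type. The comparisons ask how bleomycin, loss of Thy-1 and their combination change skin gene expression. Each mouse was 1 library. In whole skin, fewer cells of a type and less RNA per cell cannot be told apart.

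Library totals ran from 26473700 to 38890450 counts, and 18311 genes were tested. CPM stands for counts scaled to a common library size. With PBS, Thy1 was between 104 and 149.6 CPM in the WT mice and between 45.6 and 96.9 CPM in the KO mice. With bleomycin it was between 231 and 416 CPM and between 84.7 and 128 CPM, so the groups of unlike genotype did not overlap within a treatment while reads were still assigned to the gene. The part of Thy1 that the allele removes is not given in the sources used here. Genes of the growing hair follicle (34 genes) separated the libraries: their mean log2 CPM was 8.86 to 9.66 in WT PBS and −0.86 to 2.67 in WT BLM. It was −1.16, 2.08 and 9.54 in the KO PBS mice, and 4.08, 5.33 and 8.45 in the KO BLM mice. The high values in the KO groups came from KO PBS 136 and KO BLM 141, and results that rest on those groups are given with and without these 2 mice. In the WT mice, hair state and bleomycin moved together and cannot be told apart.

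Of the 10 genes, 5 are neighbors. In the mouse genome (GRCm38), Mmp13, Mmp12, Mmp3, Mmp10 and Mmp8 lie in this order on the plus strand within a stretch of 427.1 kb at chr9:7272514-7699585. Only protein-coding genes and MMP genes were counted there. They are 10 genes, all of them MMPs, of which Mmp1a is annotated as a polymorphic pseudogene. The rest of the 10 examined genes are on separate chromosomes: Mmp2 at chr8:92827291-92853420, Mmp9 at chr2:164940780-164955850, Mmp14 at chr14:54431612-54445364, Timp1 at chrX:20870166-20874735 and Timp3 at chr10:86300372-86349506. Timp3 lies within Syn3, a gene on the other strand with which it shares 1733 exonic bases, and Mmp12 shares 157 exonic bases with Mmp1b on the other strand. The use of strand in counting is not given in the sources used here. Syn3 had 2 to 57 counts and Mmp1b 0 to 5 counts per library, against at least 4512 for Timp3 and at least 40 for Mmp12. Timp1 lies inside Syn1, on the other strand, with 0 shared exonic bases.

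Promoter sequences (RefSeq, GRCm38.p6, 250 bases before to 50 after the start site) were matched for 8 of the 10 genes, with 9 windows because Mmp12 has 2 start sites. No window was used for Mmp2 and Mmp9. The AP-1 letters TGANTCA, which read the same on both strands apart from the central base, occurred in the windows of 4 genes, all in the chromosome 9 stretch, and in 7.81% of all 32851 promoters. The 4 genes differed between WT BLM and WT PBS skin, and so did Mmp8, Mmp14, Timp1 and Timp3, whose windows lack these letters. The 4 sequences that hold the letters are shown. Each runs over the 120 bases before the start site on the plus strand, with the AP-1 letters in capitals. Mmp13 (chr9:7272394-7272513) holds them 35 bases before the start, Mmp3 (chr9:7445702-7445821) at 46, Mmp10 (chr9:7502222-7502341) at 63 and Mmp12 at its second start site (chr9:7347254-7347373) at 44.
Mmp13: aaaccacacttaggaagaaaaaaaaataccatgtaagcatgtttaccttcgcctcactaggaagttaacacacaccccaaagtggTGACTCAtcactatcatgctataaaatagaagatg
Mmp3: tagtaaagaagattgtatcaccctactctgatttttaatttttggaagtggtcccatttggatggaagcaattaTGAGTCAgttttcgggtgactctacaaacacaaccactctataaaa
Mmp10: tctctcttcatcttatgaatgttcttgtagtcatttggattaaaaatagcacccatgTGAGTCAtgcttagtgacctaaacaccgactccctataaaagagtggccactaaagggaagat
Mmp12: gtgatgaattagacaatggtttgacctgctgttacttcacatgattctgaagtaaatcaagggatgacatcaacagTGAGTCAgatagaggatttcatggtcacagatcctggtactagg
On the plus strand Mmp13 reads TGACTCA and the other 3 read TGAGTCA, which are the same letters read from opposite strands. These letters were not found in the windows of Mmp8, Mmp14, Timp1 and Timp3 or in the first window of Mmp12. The ETS letters AGGAAG (either strand, in 35.4% of all promoters) occurred in the windows of Mmp13, Mmp3, Mmp8, Mmp14, Timp1 and Timp3 and in the first window of Mmp12. The RUNX letters ACCACA (16.8%) occurred in those of Mmp13 and Mmp14. Such matches are a description of the sequence and not evidence of binding.

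In WT PBS skin 3 of the 10 transcripts were far above the others. On the scale of CPM per kilobase of transcript, which allows genes to be compared, Timp3 was highest of the 10 (96.7, range 82.1 to 107), followed by Mmp14 (75.7, range 75.1 to 76.6) and Mmp2 (65.1, range 59.3 to 73.6). Mmp3 was next at 8.62, then Timp1 at 4.06, Mmp9 at 1.86, Mmp12 at 0.797 and Mmp13 at 0.070. The ranges of neighbors in this order did not overlap down to Mmp13, while Mmp8 (0 to 1 count per library) and Mmp10 (0 counts in each of 3 libraries) were at or under the floor of 3 counts. Counting error alone sets this floor.

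In WT skin, 8 of the 10 transcripts were higher and 1 was lower with bleomycin, between groups that also differed in hair state. The collagenase Mmp13, the elastase Mmp12, the gelatinase Mmp9 and the inhibitor Timp1 rose by more than 4 on the log2 scale, Mmp10 and Mmp8 rose from groups at or near 0 counts, Mmp3 rose 3.91-fold and Mmp14 3.28-fold, and Timp3 fell to 0.513 of its PBS level. This is 9 of 10 genes past an adjusted p of 0.05 (edgeR quasi-likelihood test, Benjamini-Hochberg adjustment over all genes tested), where 34% of all genes were called, 19.8% higher and 14.1% lower. In 9 of the 10 genes every WT BLM mouse lay on one side of every WT PBS mouse, which held for 57% of all genes. The median log2 fold change of the 10 genes was 4.12, or 3.26 with Mmp8 and Mmp10 set at their lower bounds and 3.03 without them, against 0.02 for all genes. Mmp8 and Mmp10 passed the filter only through bleomycin mice and could only be called higher, so nothing is read from their part in these counts. DESeq2 called all 10, where it called 34.2% of all genes.

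Collagenases cut fibrillar collagen at a single site in the triple helix. Mmp13, the main interstitial collagenase of mouse tissues, was at 0.237, 0.197 and 0.127 CPM in the WT PBS mice and at 22.5, 39.8 and 65.9 CPM in the WT BLM mice. Every WT BLM mouse was far above every WT PBS mouse, with 574 to 2009 counts against 5 to 7. The log2 fold change was 7.83 ± 1.15 (SE, n = 3 per group; edgeR adjusted p = 0.00405). Mmp8, the collagenase stored in neutrophils, had 1, 0 and 1 counts in WT PBS and 7, 21 and 15 counts in WT BLM. It rose but stayed rare, and was at least 5.33-fold higher against the floor of 3 counts per library (edgeR adjusted p = 0.0151).

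Gelatinases degrade denatured collagen and type IV collagen. Mmp9, made by macrophages, neutrophils and keratinocytes, was at 4.16, 6.84 and 6.70 CPM in WT PBS and at 47.3, 81.8 and 175.6 CPM in WT BLM. The groups were well apart, although the WT BLM mice themselves spread from 47.3 to 175.6 CPM, and the log2 fold change was 4.10 ± 0.85 (SE; edgeR adjusted p = 0.00917). Mmp2, the gelatinase of fibroblasts, was at 182.5, 192.4 and 226.4 CPM in WT PBS and at 187.1, 734.5 and 588.1 CPM in WT BLM. WT BLM 145 lay among the PBS mice while the other 2 were above them, and Mmp2 did not pass the test (log2 fold change 1.33 ± 0.55, SE; edgeR adjusted p = 0.0804).

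Stromelysins have a broad range of matrix substrates and can activate other proMMPs. Mmp3 was at 15.3, 16.0 and 15.3 CPM in WT PBS and at 26.1, 71.2 and 84.5 CPM in WT BLM. The groups did not overlap, WT BLM 145 being the lowest treated mouse (log2 fold change 1.97 ± 0.61, SE; edgeR adjusted p = 0.034). Mmp10, known from keratinocytes at wound edges, had 0 counts in all 3 WT PBS mice and 37, 91 and 110 counts in WT BLM. It was at least 29.5-fold higher against the floor of 3 counts per library (edgeR adjusted p = 0.00777).

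Mmp12, the macrophage elastase, was at 3.52, 3.22 and 1.89 CPM in WT PBS and at 40.0, 57.3 and 89.6 CPM in WT BLM. The lowest treated mouse was well above the highest PBS mouse (log2 fold change 4.44 ± 1.02, SE; edgeR adjusted p = 0.0123). Mmp14, the membrane-type enzyme that activates proMMP2 and proMMP13, was at 194.9, 196.1 and 198.9 CPM in WT PBS and at 313.1, 853.9 and 765.4 CPM in WT BLM. The PBS mice were close to each other and below every treated mouse, and the log2 fold change was 1.71 ± 0.52 (SE; edgeR adjusted p = 0.032).

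The 2 inhibitors moved in opposite directions. Timp1, a secreted and inducible inhibitor, was at 4.06, 3.22 and 3.47 CPM in WT PBS and at 62.6, 51.2 and 76.6 CPM in WT BLM. It had the smallest error of the 10 genes relative to its change, with a log2 fold change of 4.15 ± 0.44 (SE; edgeR adjusted p = 0.00215). Timp3, a matrix-bound inhibitor that also blocks several ADAM and ADAMTS enzymes, was at 387.6, 478.9 and 503.7 CPM in WT PBS and at 176.7, 336.5 and 189.8 CPM in WT BLM. Every treated mouse was below every PBS mouse, and Timp3 fell by 0.96 on the log2 scale (SE 0.31; edgeR adjusted p = 0.036).

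**Figure D1:**
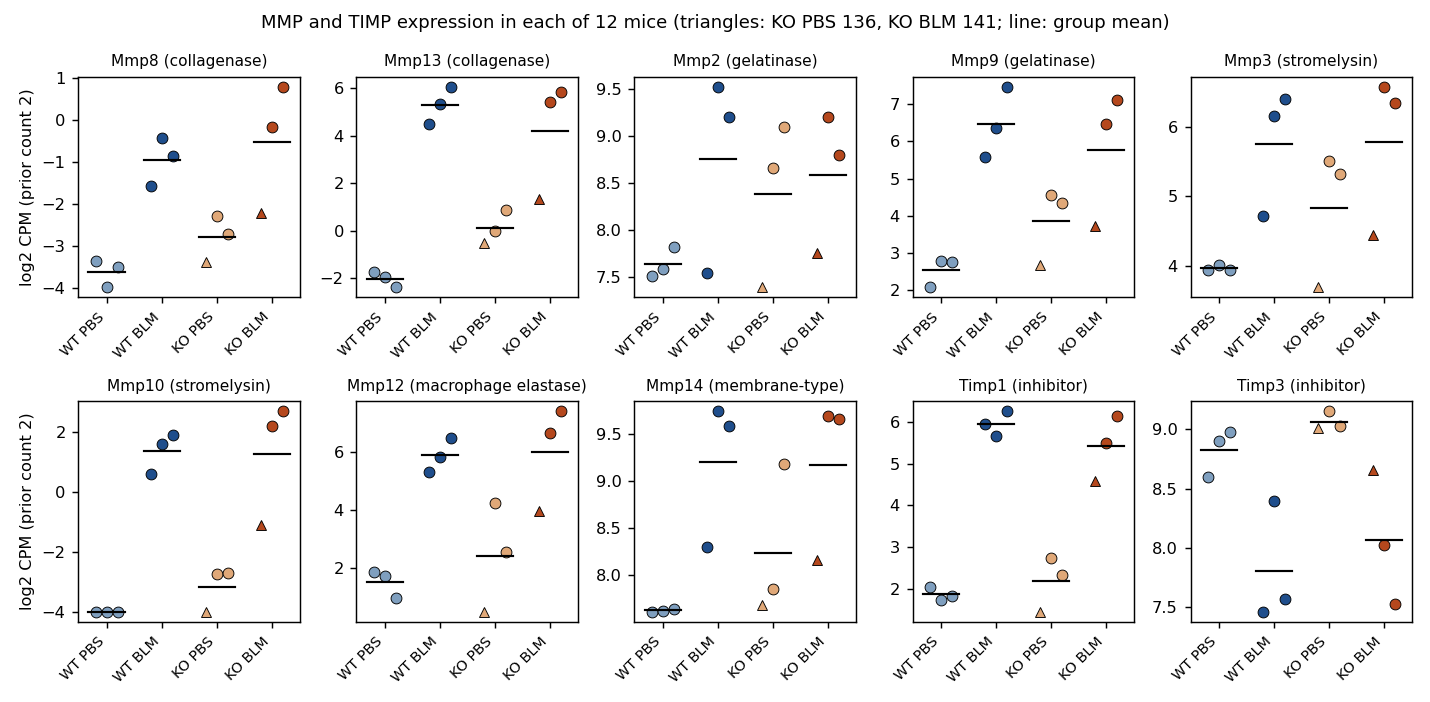
Expression of the 10 genes in each mouse, 1 panel per gene, as log2 CPM with a prior count of 2 (each y axis has its own range). Points are mice, lines are group means, and triangles are KO PBS 136 and KO BLM 141. Mmp13 is at 0.127 to 0.237 CPM in WT PBS and at 22.5 to 65.9 CPM in WT BLM, Timp3 is the gene with lower values in both bleomycin groups, and the triangles are the lowest point of their group for all 8 MMPs.

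Within the WT BLM group, mouse 145 had the lowest level of all 8 MMPs, but not of Timp1, for which it lay between the other 2. With each of the 6 WT mice left out in turn, Mmp9, Mmp10, Mmp12, Mmp13 and Timp1 passed in every fit. Mmp3 and Mmp14 were lost without WT BLM 146, WT BLM 147, WT PBS 159, WT PBS 160 or WT PBS 161 (adjusted p 0.0788 to 0.0986), Timp3 was lost without WT BLM 145, WT BLM 147, WT PBS 159, WT PBS 160 or WT PBS 161 (0.0585 to 0.11), Mmp8 was lost without WT PBS 160 (0.0549), and Mmp2 was gained without WT BLM 145. With the mean of the hair genes as a covariate, 0 of the 10 genes passed in this comparison (edgeR adjusted p 0.0583 to 0.949), where 0.0164% of all genes were called, and the log2 fold changes kept their signs (Mmp13 6.25, Timp1 2.84 with adjusted p = 0.0583, Timp3 −0.56). Without KO PBS 136 and KO BLM 141, which enter the shared estimate of spread, all 10 passed, where 49% of all genes were called.

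Markers of other cell types moved in the same comparison. Of 14 macrophage markers 12 were called higher and 0 lower, with a summed level of 460.4 to 1080 CPM in WT PBS and 2519 to 3681 CPM in WT BLM. Of 12 neutrophil markers 6 were tested, 4 called higher and 1 lower, with sums of 10.6 to 15.8 CPM and 67.6 to 461 CPM. The receptor gene Cxcr2 rose from 19 to 27 counts to 109 to 537 counts, and Csf3r and S100a9 rose too, while in the 6 WT libraries Ly6g had 0 to 2 counts, Mpo 0 to 6 and Elane 1 to 15. Most of the highest WT BLM sum came from S100a8 (up to 157.7 CPM) and S100a9 (up to 256.5 CPM). Of 12 fibroblast markers 8 were called higher and 0 lower (sums of 6717 to 9122 CPM and 13840 to 42120 CPM). Of 10 tested stressed keratinocyte genes 4 were called higher and 2 lower (median log2 fold change 2.65), with a mean log2 CPM of 2.52 to 3.11 in WT PBS and 4.40 to 6.65 in WT BLM. The sums of these genes overlapped, at 2835 to 3681 CPM in WT PBS and 1733 to 5847 CPM in WT BLM. Of 8 T cell markers 7 were higher and 0 lower, and of 8 mast cell markers 3 were higher and 1 lower. Skeletal muscle genes were higher for 11 of 12 (5931 to 6497 CPM and 20620 to 42350 CPM), and hair genes were lower for 19 of 34 (53530 to 81510 CPM and 113.8 to 912.8 CPM). Their part in the MMP and TIMP values was not tested.

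Summed per kilobase, the 8 MMPs were at 145.2, 150.1 and 161.3 CPM per kilobase in the WT PBS mice and at 231.2, 665.6 and 639.9 in the WT BLM mice. All treated mice were above the PBS mice, and WT BLM 145 was much closer to them than the other 2. The sum of Timp1 and Timp3 was 86.7, 105.1 and 110.6 in WT PBS and 108.3, 129.2 and 126.9 in WT BLM. Timp1 was 3.47% to 5.3% of this pair in WT PBS and 44.8% to 68.3% in WT BLM. In 2 of the 3 WT BLM mice (145 and 147) Timp1 was above Timp3. Timp2, which is not among the 10 genes, was at 88.4 to 121 CPM per kilobase in WT PBS and at 91.2 to 195 in WT BLM. Over all 4 TIMP genes the sum was 175.5 to 228.1 in WT PBS and 199.5 to 324.1 in WT BLM, and Timp1 was 1.61% to 2.62% and 17.9% to 35.5% of it.

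**Figure D2:**
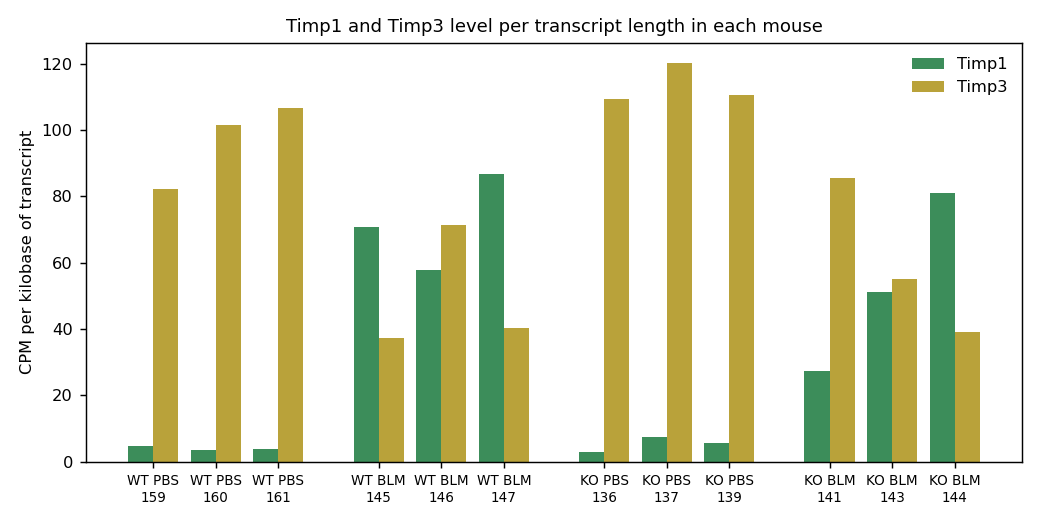
Levels of Timp1 (green) and Timp3 (ochre) in each of the 12 mice, in CPM per kilobase of transcript. Timp1 is 2.68% to 5.87% of the pair in the 6 PBS mice and 24.2% to 68.3% in the 6 bleomycin mice, while the sum of the pair lies between 86.7 and 129.2 in all mice.

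The log2 ratio of the MMP sum to the TIMP sum was 0.60 ± 0.13 (SD, n = 3) for WT PBS and 1.93 ± 0.73 for WT BLM. For KO PBS it was 1.08 ± 0.77 and for KO BLM 1.93 ± 0.95. It ranged from 0.51 to 0.74 in WT PBS and from 1.10 to 2.37 in WT BLM, which did not overlap. In the KO mice it was 0.35, 1.01 and 1.89 with PBS and 0.84, 2.58 and 2.36 with bleomycin, which overlapped through KO BLM 141. The ratio does not depend on library normalization and was not tested. Mmp14 and Mmp2, the most abundant MMPs in every group, weigh most in it.

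In KO skin, 9 of the 10 genes had a higher and Timp3 a lower mean with bleomycin, but only Timp1 passed the test. This is 1 of 10 genes, where 0.306% of all genes were called. In CPM, KO BLM and KO PBS mice were apart for 5 of the 10 genes, against 19.3% of all genes: Mmp10, Mmp13, Timp1, Timp3 and, by a narrow margin, Mmp8. The median log2 fold change was 2.74, or 1.64 without Mmp8 and Mmp10, against −0.01 for all genes. Here too, Mmp8 and Mmp10 could only be found higher, because they passed the filter only through bleomycin mice. An unadjusted p under 0.05 was found for 7 of the 10, against 20% of all genes. DESeq2 called 7 of the 10 (6 higher, 1 lower), where it called 6.14% of all genes.

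Timp1 was at 2.66, 6.63 and 4.98 CPM in KO PBS and at 24.0, 45.3 and 71.6 CPM in KO BLM. All treated mice were above all PBS mice, and the log2 fold change was 3.30 ± 0.42 (SE, n = 3 per group; edgeR adjusted p = 0.0305). The call was lost without KO PBS 139 (adjusted p = 0.146), KO BLM 143 (0.0981) or KO BLM 144 (0.078). Timp3 was at 516.5, 568.1 and 522.2 CPM in KO PBS and at 403.2, 260.8 and 185 CPM in KO BLM. The groups did not overlap, with a log2 fold change of −0.92 ± 0.31 that did not pass (edgeR adjusted p = 0.161).

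Mmp13 was at 0.632, 0.914 and 1.76 CPM in KO PBS and at 2.48, 43.3 and 57.7 CPM in KO BLM. KO BLM 141 lay just above the PBS mice and the other 2 treated mice far above (log2 fold change 4.96 ± 0.97, SE; edgeR adjusted p = 0.059). Mmp10 had 0, 3 and 3 counts in KO PBS and 13, 145 and 178 counts in KO BLM, at least 40.9-fold higher against the floor, with an adjusted p of 0.0799 in edgeR. Mmp8 had 1, 5 and 3 counts in KO PBS and 5, 27 and 47 counts in KO BLM (edgeR adjusted p = 0.116). In both genes KO BLM 141 again stood next to the PBS mice.

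Mmp12 was at 1.33, 18.8 and 5.69 CPM in KO PBS and at 15.4, 102.1 and 169.7 CPM in KO BLM. Its groups overlapped, because KO PBS 137 was above KO BLM 141 (log2 fold change 3.47 ± 0.96, SE; edgeR adjusted p = 0.128). Mmp9 was at 6.35, 23.5 and 20.4 CPM in KO PBS and at 13.04, 88.3 and 139.4 CPM in KO BLM (log2 fold change 2.26 ± 0.79; edgeR adjusted p = 0.169), with the same kind of overlap. Mmp3, at 12.8, 45.2 and 39.8 CPM against 21.7, 94.7 and 80.8 CPM, had an adjusted p of 0.355 in edgeR. The abundant fibroblast enzymes showed the smallest differences. Mmp14 was at 204.6, 229.7 and 577.7 CPM in KO PBS and at 285.4, 825.8 and 809.7 CPM in KO BLM (edgeR adjusted p = 0.331). Mmp2 was at 168, 403.6 and 546.9 CPM against 216.5, 588.6 and 446.6 CPM, with a log2 fold change of 0.16 and a 95% interval from −1.03 to 1.35.

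KO PBS 136 and KO BLM 141, the KO mice with high hair genes, were the lowest of their group for all 8 MMPs. KO BLM 141 was also the lowest for Timp1 and the highest for Timp3 in its group. Without KO BLM 141 alone, 7 of the 10 genes passed in the KO comparison, where 6.19% of all genes were called, and without KO PBS 136 alone 3 did, where 14% were. Without both mice, 7 passed: Mmp8 (log2 fold change 3.37), Mmp9 (2.37), Mmp10, Mmp12 (3.47), Mmp13 (5.24 with edgeR adjusted p = 0.00352) and Timp1 (3.33) were higher and Timp3 (−1.29) was lower, where 22.3% of all genes were called. Mmp2, Mmp3 and Mmp14 did not pass. The mean log2 CPM of the hair genes was −1.16 and 2.08 in the remaining KO PBS mice and 4.08 and 5.33 in the remaining KO BLM mice. Hair state and bleomycin therefore cannot be told apart in that fit. With the hair genes as a covariate in all 12 mice, 6 of the 10 genes passed, where 8.85% of all genes were called, and Timp3 did not (edgeR adjusted p = 0.0602). Of the macrophage markers 0 of 14 were called in the KO comparison (edgeR; 3 had an unadjusted p under 0.05, and DESeq2 called 1 lower), with sums of 488 to 2398 CPM in KO PBS and 1709 to 2410 CPM in KO BLM. Neutrophil and stressed keratinocyte genes had medians of 2.79 (6 tested) and 2.97 (10 tested) on the log2 scale, with 0 called in edgeR, 5 and 4 at an unadjusted p under 0.05, and 3 and 3 called higher in DESeq2. KO BLM 141 was the lowest KO BLM mouse for both, with summed neutrophil markers of 20.8 CPM against 258 and 298.3 CPM, and a mean log2 CPM of stressed keratinocyte genes of 2.77 against 6.54 and 6.80. Single neutrophil markers differed in spread among KO BLM mice. S100a8 ranged from 5.2 to 103.2 CPM, S100a9 from 2.7 to 167.3, Cxcr2 from 1.5 to 12.4 and Csf3r from 10.2 to 13.9. Most of the highest sum came from S100a8 and S100a9, while Ly6g had 0 counts and Mpo 1 to 3. The sum is therefore not read as a level of neutrophils. The part of these cells in the MMP values was not tested.

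**Figure D3:**
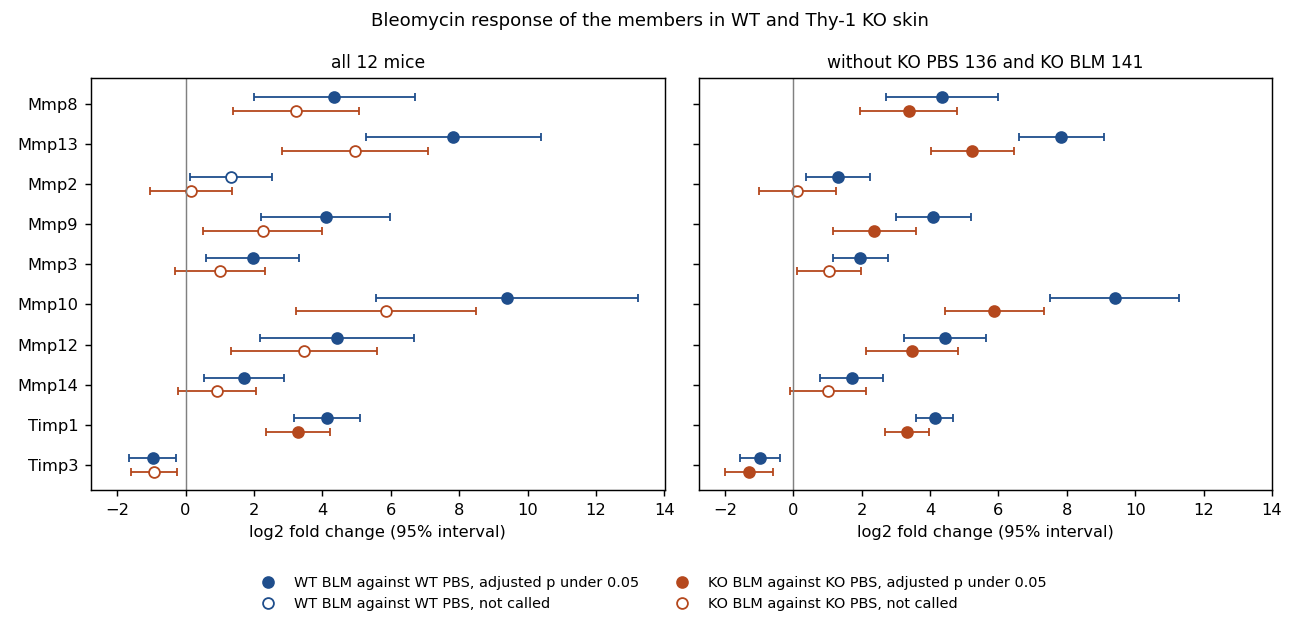
Log2 fold change between bleomycin and PBS for the 10 genes in WT (blue) and KO (red) mice, with 95% intervals, in the fit of all 12 mice (left) and without KO PBS 136 and KO BLM 141 (right). Filled points have an edgeR adjusted p under 0.05. In the left panel 9 WT points and 1 KO point (Timp1) are filled, and in the right panel 10 and 7. The fitted values of Mmp10 and Mmp8 rest on PBS groups at or near 0 counts and are not bounds.

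With PBS alone, the KO mice had higher mean levels than the WT mice for all 10 genes, and 0 of the 10 passed the edgeR test, where 0.0655% of all genes were called. One of the 10 had an unadjusted p under 0.05, against 20.4% of all genes, and DESeq2 called 0, where it called 3.83% of all genes. The median log2 fold change of the 8 genes above the floor (without Mmp8 and Mmp10) was 0.98. For 3 of the 10, every KO PBS mouse was above every WT PBS mouse, and 18.9% of all genes were without overlap. The gene with the smallest p was Mmp13, with 19, 32 and 59 counts in KO PBS against 7, 6 and 5 in WT PBS. Each KO PBS mouse was above each WT PBS mouse (log2 fold change 2.56, 95% interval 0.18 to 4.95, edgeR adjusted p = 0.234), and the value was 1.47 with the hair covariate (edgeR adjusted p = 0.999). The other 2 were Mmp14 (0.78, edgeR adjusted p = 0.368) and Timp3 (0.23, edgeR adjusted p = 0.649), the latter with a much narrower spread among KO PBS mice, 516.5 to 568.1 CPM, than the 8 MMPs had relative to their means.

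The baseline comparison changed most without KO PBS 136 and KO BLM 141. In that fit Mmp3 (1.45), Mmp9 (1.89), Mmp10, Mmp12 (2.10) and Mmp13 (2.84 with edgeR adjusted p = 0.00789) passed with higher values in KO PBS, 5 of 10 genes, where 40.9% of all genes were called, so the share of the 10 genes was near the background. Mmp10 had 3 and 3 counts in the 2 KO PBS mice and 0 in WT PBS, which is at the floor in both groups, so nothing is read from its call. DESeq2 without these mice called 8 of 10, where it called 38.1% of all genes. It compares 2 KO PBS mice with low hair genes with 3 WT PBS mice with high hair genes, and hair state and genotype cannot be told apart there. With the hair covariate in all 12 mice, 0 of 10 passed and Mmp3, Mmp12 and Timp1 changed sign (−0.16, −1.13 and −0.52).

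After bleomycin, KO and WT mice overlapped for all 10 genes, against 27.5% of all genes without overlap. In edgeR 0 of the 10 passed, where 0.0928% of all genes were called, 0 had an unadjusted p under 0.05, against 16.6% of all genes, and DESeq2 called 0, where it called 3.34% of all genes. The log2 fold changes of KO BLM against WT BLM lay between −0.43 (Timp1, 95% interval −1.28 to 0.41) and 0.84 (Mmp8, −0.71 to 2.39). For Mmp13 the value was −0.31 with an interval from −2.08 to 1.46, and for Mmp14 it was −0.01 with an interval from −1.14 to 1.12. The intervals are wide, and differences of 2-fold or more in either direction lie within those of Mmp13, Mmp14, Mmp9 and Mmp3. Without KO PBS 136 and KO BLM 141, 0 of 10 passed as well, where 4.36% of all genes were called, and the interval of Timp1 narrowed to −0.64 to 0.41. The mean log2 CPM of the hair genes was 4.08 to 8.45 in KO BLM and −0.86 to 2.67 in WT BLM. Hair state and genotype therefore cannot be told apart in this comparison. With the hair covariate, Mmp2, Mmp9, Mmp13, Mmp14 and Timp1 changed sign, and Mmp12 was at 2.25 (edgeR adjusted p = 0.231).

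The bleomycin log2 fold change of the KO mice minus that of the WT mice was tested as a contrast, which shares its PBS and bleomycin groups with the comparisons above. In edgeR 0 of the 10 genes passed, where 0% of all genes were called, and 0 had an unadjusted p under 0.05, against 31.1% of all genes. DESeq2 called 0 of the 10, where it called 18.5% of all genes. The smallest adjusted p was that of Mmp13, whose log2 fold change was 7.83 in WT and 4.96 in KO, a difference of −2.87 (95% interval −5.85 to 0.11; edgeR adjusted p = 0.172). The difference was −1.84 (−4.23 to 0.54) for Mmp9, −0.84 (−2.07 to 0.38) for Timp1 and 0.04 (−0.91 to 0.99) for Timp3, and it was below 0 for 9 of the 10. With the hair covariate, Mmp2, Mmp3, Mmp8, Mmp9, Mmp10, Mmp12, Timp1 and Timp3 changed sign, while Mmp13 (−0.97) and Mmp14 (−0.04) stayed below 0. Hair state differed between the groups, so it cannot be told apart from genotype in this contrast. Without KO PBS 136 and KO BLM 141, 1 of the 10 passed, Mmp13 with −2.60 (95% interval −4.32 to −0.88; edgeR adjusted p = 0.0255), where 38.6% of all genes were called. DESeq2 without these mice called Mmp13 and Mmp9, 2 of 10, where it called 35.5% of all genes. Mmp13 levels of KO BLM and WT BLM mice overlapped, while those of KO PBS mice were above those of WT PBS mice.

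Along the chromosome 9 stretch, neighboring genes did not move alike in WT mice. The 5 members there were all called higher, with log2 fold changes from 1.97 (Mmp3) to 7.83 (Mmp13) apart from Mmp10, which is given by its bound. Mmp27, the next gene after Mmp8, was at −0.58 (edgeR adjusted p = 0.399), and Mmp20, known from tooth enamel, had 1, 23 and 14 counts in WT PBS and 1, 2 and 0 in WT BLM, at the floor in the latter, and did not pass (edgeR adjusted p = 0.141). Mmp1a, Mmp1b and Mmp7 did not pass the filter on low counts.

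**Figure D4:**
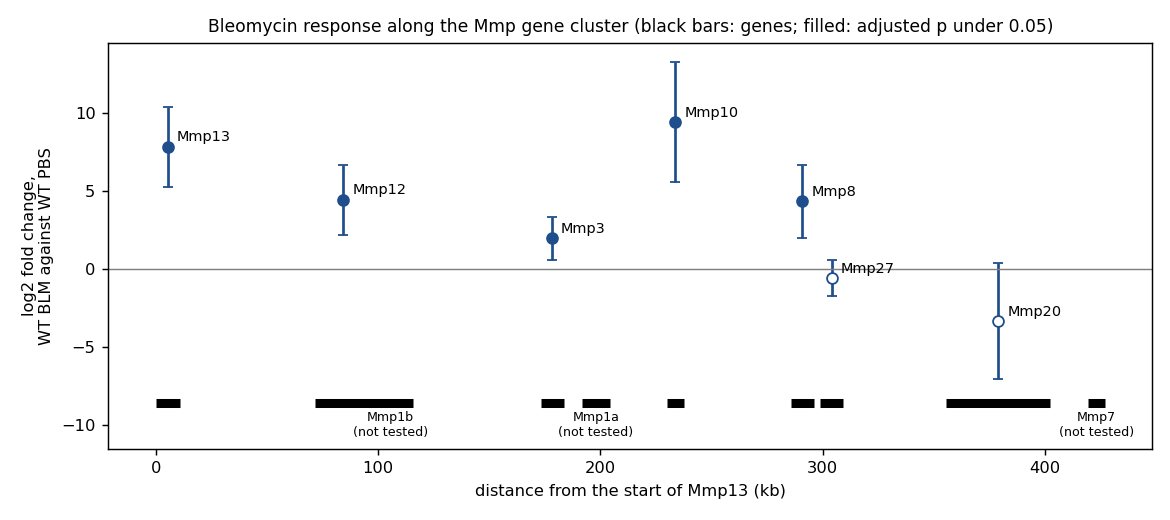
Log2 fold change of WT BLM against WT PBS (points, with 95% intervals) for the genes of the MMP stretch of chromosome 9, by distance from the start of Mmp13 in kb. Black bars are genes. The 5 filled points, from Mmp13 to Mmp8, have an edgeR adjusted p under 0.05, and the open points of Mmp27 and Mmp20 do not. The values of Mmp10, Mmp8 and Mmp20 are fits against groups at the floor of 3 counts and are not bounds.

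Other genes of the pathway were counted in the WT comparison. Of 17 further MMP and TIMP genes 12 were tested, with 5 higher and 0 lower: Mmp19 (log2 fold change 2.51), Mmp25 (2.19), Mmp17 (1.61), Mmp28 (1.49) and the membrane-type Mmp15 (0.90). Their median was 1.32. Timp2 (0.47, edgeR adjusted p = 0.292) and Timp4 (−1.28, edgeR adjusted p = 0.1) did not pass. Of 13 tested genes that activate, bind or control MMPs, 6 were higher and 1 lower (median 1.25). These included the urokinase receptor gene Plaur (2.75) and the mast cell tryptase gene Tpsab1 (2.62), which can share reads with its close paralog. The proprotein convertase gene Pcsk6 was lower (−0.48).

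Of 9 tested ADAM and ADAMTS genes whose products TIMP3 can inhibit, 5 were higher and 0 lower (median 0.77), among them Adam12 (2.69), Adamts4 (2.61) and Adam19 (1.94). Of 14 genes for AP-1 subunits and cytokines that induce MMPs, 5 were higher and 1 lower (median 1.33). The cytokine genes Osm (3.09) and Il1b (2.19) and the AP-1 subunit gene Fosl1 (1.80) were the higher ones with the largest changes, and Fosl2 was the lower one (−0.79). Of 12 matrix substrates 6 were higher and 1 lower (median 0.74): fibronectin, Fn1, rose by 2.75 and tenascin C, Tnc, by 2.38 on the log2 scale, and aggrecan, Acan, fell by 2.46. In each of the 5 lists the share called was above the 34% of all genes, and it is not read as particular to them.

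In the KO comparison, 0 of the tested genes of these 5 lists passed in edgeR. An unadjusted p under 0.05 was found for 3 of 12 further MMP and TIMP genes, 7 of 13 activation and control genes, 2 of 9 ADAM and ADAMTS genes, 10 of 14 AP-1 and cytokine genes and 4 of 12 matrix substrates. Against the 20% of all genes with such a p, the shares of the further MMP and TIMP genes and of the ADAM and ADAMTS genes are near the background. In the same order of lists, DESeq2 called 2 genes (0 higher, 2 lower), 6 (4 higher, 2 lower), 1 (higher), 6 (all higher) and 2 (all higher). It called 6.14% of all genes in this comparison. In the AP-1 and cytokine list the median log2 fold change was 1.72 in KO and 1.33 in WT. Il1b was at 0.89 to 1.695 CPM in KO PBS and at 3.03 to 16.9 CPM in KO BLM (edgeR adjusted p = 0.0553).

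For each of the 10 genes, the 2 genes with the most similar log2 CPM over the 12 mice were found. The mice share treatment, and for Mmp8, Mmp10, Mmp13 and Timp1 the points fall into PBS and bleomycin mice, while for the other genes these overlap. The correlations therefore describe the pattern and carry no test. Mmp2 was nearest to Serpinf1 (Pearson r = 0.979) and Pcolce, which encodes the procollagen C-proteinase enhancer. Mmp13 was nearest to Tnn, tenascin N (0.989), and to Mmp10 (0.983). Mmp12 was nearest to the myeloid lectin gene Clec4d (0.986) and to Osm (0.983), and Mmp9 to Il10rb and Gngt2. Timp1 was nearest to Cdkn2a, a cell cycle inhibitor gene (0.993), and to Plaur (0.991), and Timp3 to Mme, which encodes neprilysin (0.982), and Smim1. For Mmp14 the nearest were Itgb5 and Slc35b2, for Mmp3 Pheta2 and Mmp23, for Mmp8 Trappc2l and Ndufa2, and for Mmp10 Tafa1 and Bcl2a1b.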

How the data were processed

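Whole-skin RNA from 12 mice was sequenced (stranded mRNA libraries). The authors deposited 1 table of raw read counts per gene, without normalization. The aligner, counter and annotation are not given in the sources used here. The submitters' processing notes name GRCm38.p6 and MultiQC 1.7. Groups came from the sample labels, and the mouse number is the replicate name. The members, lists and tests were chosen with earlier results of these data known.

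Counts were fitted in edgeR 4.0.16 (R 4.3.3; filterByExpr with at least 10 counts and 15 in total, TMM, quasi-likelihood F test of 4 group means, 18311 genes, Benjamini-Hochberg threshold 0.05). The biological coefficient of variation was 34.9%. P-values measure the spread between mice. An SE is the log2 fold change divided by the square root of F. Intervals are 95%. CPM used TMM library sizes. CPM per kilobase used the longest principal transcript (GENCODE M21, GRCm38). A log2 CPM has a prior count of 2. A gene at or under 3 counts in every mouse of a group is given by a lower bound. In simulated counts for the WT comparison (18311 genes), 154 of 200 genes changed 4-fold were recovered (77%), with 8 other genes called. The alternatives were DESeq2 1.42.0, other normalizations and filters, fewer samples and a hair covariate.

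Named genes were the 10 members, called genes of the other MMP and TIMP list, up to 3 called genes with the largest change in each other list, and the 2 most correlated genes per member. A gene that this rule names is not reported here. Where Timp2, Timp4, Mmp20, Mmp27, single neutrophil markers and Il1b in KO mice are given, they were added after their values were seen. Pcsk6 and Fosl2 are also outside the rule and are named as the lower gene of their lists. Pictures were drawn with matplotlib.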

Additional observations from a re-analysis of the deposited data

How the results depend on the processing

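No paired analysis was possible because each mouse has its own number. The number of members passing in the WT bleomycin comparison was 9, where 34% of all genes were called, and ranged from 5 to 10 with 1 mouse left out. It was 0 with the hair covariate (0.0164% of all genes). In the KO bleomycin comparison 1 member passed. This was 7 in DESeq2 (6.14% of all genes), 3 without a filter (0.507%), 0 with only the groups compared (0%) and 6 with the hair covariate (8.85%). It was 0 to 7 with 1 mouse left out, the 7 being without KO BLM 141 (6.19%). Without KO PBS 136 and KO BLM 141 it was 7 in edgeR (22.3%) and 7 in DESeq2, whose share of all genes is not given here. In the other 3 comparisons it was 0, also with any 1 mouse left out. Without both mice it was 5 in edgeR (40.9% of all genes) and 8 in DESeq2 (38.1%) for KO PBS against WT PBS. For the difference of responses it was 1 (38.6%) and 2 (35.5%). RLE factors changed no call, and a minimum of 1 CPM removed Mmp8 and changed no other call.

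Signs changed as follows. For KO BLM against WT BLM, Mmp14 became 0.01 (upper-quartile factors), 0.02 (no filter) and 0.00 (only these groups). Without both mice, edgeR and DESeq2 gave 0.04 and 0.05 (Mmp2), 0.16 and 0.17 (Mmp9), 0.24 and 0.25 (Mmp13), 0.35 and 0.35 (Mmp14), and −0.07 and −0.06 (Timp3). The difference for Timp3 became −0.01 with upper-quartile factors and −0.32 and −0.33 without both mice. With the hair covariate, KO PBS against WT PBS gave −0.16 (Mmp3), −1.13 (Mmp12) and −0.52 (Timp1), and KO BLM against WT BLM gave 0.24 (Mmp2), 0.75 (Mmp9), 0.51 (Mmp13), 0.32 (Mmp14) and 0.34 (Timp1). The differences became 0.11 (Mmp2), 1.10 (Mmp3), 0.92 (Mmp8), 0.75 (Mmp9), 0.16 (Mmp10), 3.39 (Mmp12), 0.86 (Timp1) and −0.51 (Timp3). With 1 mouse left out, ranges that crossed 0 were, for KO BLM against WT BLM, −0.66 to 0.11 (Mmp2), −0.24 to 0.57 (Mmp3), −1.0 to 0.32 (Mmp9), −0.13 to 1.04 (Mmp10), −0.08 to 1.16 (Mmp12), −0.90 to 0.27 (Mmp13), −0.34 to 0.38 (Mmp14) and −0.04 to 0.63 (Timp3). They were −0.19 to 0.54 for Mmp2 in KO bleomycin, and −1.67 to 0.32 (Mmp12, above 0 without KO PBS 137) and −0.30 to 0.40 (Timp3) for the difference. None of these values passed, and the cause was not tested.

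The log2 MMP to TIMP ratio of WT PBS became −0.12 from counts without length, and that of KO PBS 0.37. With all measured MMP and TIMP genes it was −0.18 (WT) and 0.17 (KO) with PBS, and 1.13 (WT) and 1.16 (KO) with bleomycin. Mmp8 and Mmp10 are limited by depth.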
